A study of Rattus norvegicus with 88 samples.

Results

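The miRNAs described here, rno-miR-143, rno-miR-145, rno-miR-199a-3p, rno-miR-199a-5p, rno-miR-214 and rno-miR-126, are 6 of the 677 rat miRNAs on the array and were chosen by name as markers of cells other than hepatocytes. The first 5 are treated as mesenchymal, since they are known from stellate cells, smooth muscle and fibroblasts, and miR-126 as endothelial. RNA came from whole livers of untreated F344 rats, an inbred strain, of both sexes and 9 ages, namely 2 weeks, then 5, 6 and 8 weeks, 15 and 21 weeks, and lastly 52, 78 and 104 weeks. There were 5 rats of each sex at each age, except for 4 males at 5 and 4 at 104 weeks, and each of the 88 one-color Agilent arrays (45 female, 43 male) held 1 rat. Ages were also joined into the study's classes, young (2 weeks, 5 females and 5 males), adult (5 to 21 weeks, 25 and 24) and old (52 to 104 weeks, 15 and 14). Rats of different ages were different animals, and the estrous stage of the females was not evaluated.

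Hepatic stellate cells lie between hepatocytes and the sinusoidal endothelium, store vitamin A and, when activated by injury, turn into the contractile, collagen-producing cells of fibrosis. The miR-143 and miR-145 pair is known for holding vascular smooth muscle in its contractile state, and the miR-199a and miR-214 cluster is associated with activated stellate cells and fibroblasts. miR-126 is made from an intron of Egfl7, the gene of a factor secreted by endothelium, and supports signaling by vascular endothelial growth factor. In RNA from liver tissue, fewer cells of a type and less of a miRNA per cell cannot be told apart.

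The mature sequences are shown because the 6 miRNAs come from only a few genomic sites and yet differ in the bases that select their targets. Sequences are from RefSeq (GRCr8), 5′ to 3′, with the seed (bases 2 to 8) in capitals. All 6 were matched, as was miR-126*, the other arm of the miR-126 hairpin.
miR-143: uGAGAUGAagcacuguagcuca
miR-145: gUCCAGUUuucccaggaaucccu
miR-199a-3p: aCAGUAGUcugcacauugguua
miR-199a-5p: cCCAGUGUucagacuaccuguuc
miR-214: aCAGCAGGcacagacaggcag
miR-126: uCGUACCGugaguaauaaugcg
miR-126*: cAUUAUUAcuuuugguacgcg

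The 6 miRNAs had 6 distinct seeds, and 0 other names among the 724 mature rat entries shared one of them. In GRCr8, miR-143 (chr18:57371373-57371394) and miR-145 (chr18:57370033-57370055) are on the minus strand, in hairpins that lie 1278 bases apart within the span of the long noncoding RNA Carmn. miR-199a-5p (chr13:77116255-77116277) and miR-199a-3p (chr13:77116294-77116315) are the opposite arms of 1 hairpin on the plus strand. The hairpin of miR-214 (chr13:77121713-77121733) follows 5310 bases further on, and both hairpins lie within the span of Dnm3, a dynamin gene. miR-126 (chr3:29813219-29813240) lies on the plus strand within the span of Egfl7. Whether these spans are exonic or intronic was not analyzed here.

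Each miRNA was measured by 20 spots, and 314 miRNAs were detected on at least 1 array and 103 on every array. Intensity is given as the total gene signal divided by the array's 75th percentile over those 314 miRNAs, so that 1 is the 75th percentile. That percentile ranged from 28.1 to 289 arbitrary units over the arrays, no target spot was saturated, and the number of arrays limits the precision. Levels of different miRNAs are not set against each other, because probes differ in brightness. Scans, of 1, 13, 30, 28 and 16 arrays, served as batches 1 to 5. A change was called at a limma adjusted p under 0.05 and at least 1.5-fold.

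miR-143, miR-199a-3p, miR-199a-5p, miR-214 and miR-126 were detected in 88 of 88 livers. miR-145 was detected in 31 of 88 (35.2%), although its hairpin neighbors that of miR-143. The intensity ranged over the arrays from 5.06 to 18.3 for miR-143 (3.61-fold), from 1.86 to 3.87 for miR-199a-3p (2.08-fold) and from 0.635 to 1.41 for miR-199a-5p (2.22-fold). The range was 0.300 to 1.40 for miR-214 (4.66-fold) and 12.8 to 23.4 for miR-126 (1.82-fold). Between group means of these 5 the span was smaller, at most 1.85-fold, in miR-143. The median SD within a group was 0.15 on the log2 scale for miR-126 and 0.21 to 0.22 for the 4 mesenchymal miRNAs detected on every array.

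**Figure D1:**
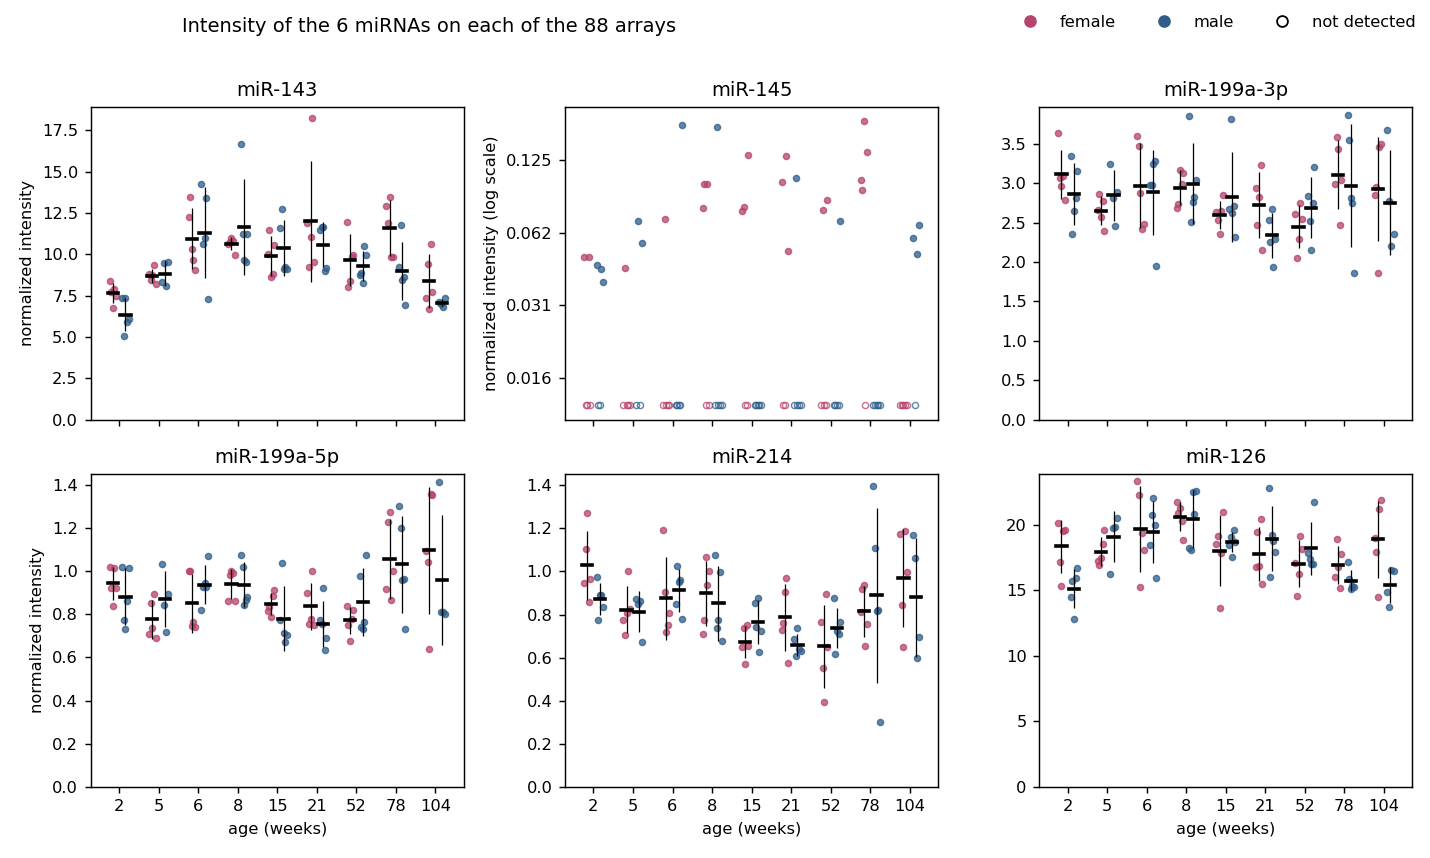
Normalized intensity (array 75th percentile = 1; linear axis from 0, log axis for miR-145) of the 6 miRNAs against age in weeks, with 1 point per rat, females in red and males in blue, bars for the mean and lines for ± 1 SD of 4 or 5 rats. On this scale the miR-143 points at 2 weeks (5.06 to 8.38) lie low and those of 6 to 21 weeks mostly higher, an order that turns under other scalings of the arrays; open circles mark the 57 arrays on which miR-145 was not detected.

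On the scale used, miR-143 had the widest span between group means of the 5 miRNAs detected in every liver, an order that other scalings changed. Among females the 5 livers at 2 weeks read 6.75, 7.499, 7.71, 7.91 and 8.38 (mean 7.65 ± 0.598, SD, n = 5). At 21 weeks they read 9.25, 9.54, 11.1, 11.9 and 18.3 (12.0 ± 3.67), and at 78 weeks 9.81, 9.83, 11.9, 12.9 and 13.5 (11.6 ± 1.71). Neither of these later groups overlapped the group at 2 weeks. The log2 difference from 2 weeks was 0.61 (SE 0.139, adjusted p = 0.000296) at 21 weeks and 0.59 (adjusted p = 0.000387) at 78 weeks. At 104 weeks the female values of 6.72, 7.37, 7.71, 9.45 and 10.6 (8.38 ± 1.61) overlapped those at 2 weeks. Both differences from 2 weeks turned with the percentile over the 103 always-detected miRNAs (-0.21 and -0.33) and under quantile normalization (-0.19 and -0.27). Without the highest liver at 21 weeks, that difference was 0.44 on the log2 scale, below 1.5-fold. Leaving out replicate 4 of the 2-week females ended both calls, and replicate 6 of those females or replicate 1, 2 or 3 of the 78-week females ended the call at 78 weeks (values down to 0.53).

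Male livers gave miR-143 intensities of 5.06, 5.89, 6.10, 7.36 and 7.38 at 2 weeks (6.36 ± 1.004, SD, n = 5). At 8 weeks they gave 9.51, 9.65, 11.2, 11.2 and 16.7 (11.7 ± 2.91), all above the livers at 2 weeks. The values at 6 weeks were 7.27, 10.6, 10.99, 13.4 and 14.3, of which the lowest fell within the range at 2 weeks. The log2 difference from 2 weeks was 0.81 at 6 weeks, 0.86 at 8 weeks, 0.70 at 15 weeks and 0.74 at 21 weeks (adjusted p at most 0.000137). At 104 weeks the 4 livers read 6.83, 7.01, 7.09 and 7.35 (7.07 ± 0.214), all below the 5 livers at 8 weeks. The differences of 104 weeks from 6 weeks (-0.64, adjusted p = 0.00571) and from 8 weeks (-0.69, adjusted p = 0.00432) were called. The first became 0.21 without scaling and the second 0.0054 with the normexp background, and leaving out replicate 1 or 4 of the 6-week males or replicate 1 of the 8-week males also ended the respective call (values up to -0.55). On the scale used, the means therefore ran from a low at 2 weeks to a maximum at 8 weeks and back, but under quantile normalization, or with the percentile taken over the 103 always-detected miRNAs, the differences of 6 to 21 weeks from 2 weeks turned negative.

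On the scale used, miR-214 was called in females only by the thresholds, and no test of a sex difference in it passed. With the percentile over all 677 miRNAs it was called higher in males at 8 weeks (log2 difference 1.31, limma adjusted p = 0.0165). Female livers at 2 weeks read 0.857, 0.946, 0.963, 1.10 and 1.27 (1.03 ± 0.162, SD, n = 5). At 15 weeks they read 0.568, 0.651, 0.653, 0.736 and 0.7499 (0.672 ± 0.0737), all below the livers at 2 weeks. At 52 weeks they read 0.396, 0.550, 0.649, 0.767 and 0.896 (0.652 ± 0.193), which overlapped the livers at 2 weeks in 1 array. The log2 differences from 2 weeks were -0.61 at 15 weeks (SE 0.179, adjusted p = 0.00408) and -0.70 at 52 weeks (adjusted p = 0.00100). With the percentile over all 677 miRNAs, the difference at 15 weeks was 0.13. Leaving out replicate 4 of the 15-week or replicate 3 or 4 of the 2-week females ended the call at 15 weeks, and replicate 6 of the 52-week females that at 52 weeks (values from -0.53). At 104 weeks the values were 0.650, 0.842, 0.998, 1.17 and 1.19 (0.971 ± 0.228), which overlapped those at 52 weeks, and the log2 difference from 52 weeks was 0.59 (adjusted p = 0.0397). Leaving out any of 6 livers, replicates 1, 7 and 8 at 104 weeks and 5, 6 and 9 at 52 weeks, ended that call (values from 0.43, adjusted p up to 0.211). In males the group means lay between 0.659 (21 weeks) and 0.913 (6 weeks), and 0 of 36 pairs of ages were called or reached an adjusted p under 0.05. The 78-week males spread widest, at 0.300, 0.816, 0.821, 1.11 and 1.40, and the liver at 0.300 was the lowest of all 88. miR-214 had all 20 spots well above background on 80 arrays but no such spot on 1 array, which was not matched to that liver.

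The miR-199a arms had no called pair of ages in either sex on the scale used. Adult minus young, however, with the percentile over the 103 always-detected miRNAs was -0.82 for miR-199a-3p and -0.81 for miR-199a-5p in females, and -1.17 and -1.16 in males, and with the percentile over all 677 it was 0.60 and 0.61, and 1.14 and 1.15. On the scale used miR-199a-3p had group means between 2.34 (males at 21 weeks) and 3.11 (females at 2 weeks). Its F test over the 9 ages did not pass in females (adjusted p = 0.201), where only 52 against 2 weeks reached an adjusted p under 0.05 (log2 difference -0.35, adjusted p = 0.0223). miR-199a-5p had group means between 0.754 (males at 21 weeks) and 1.10 (females at 104 weeks). The female livers at 52 weeks read 0.678, 0.748, 0.776, 0.819 and 0.837, and 4 of the 5 at 104 weeks read 1.04, 1.09, 1.35 and 1.36, with the fifth at 0.638. Over the 9 ages its F test passed in females (adjusted p = 0.0140), but the log2 difference of 104 from 52 weeks (0.46, adjusted p = 0.0384) and the other passing pairs stayed under 1.5-fold. Males at 104 weeks read 0.801, 0.809, 0.811 and 1.41, so that 1 rat stood apart from 3 that nearly coincided.

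miR-126, the endothelial miRNA, changed with age by less than 1.5-fold in both sexes on the scale used. Adult livers were called lower than young with the percentile over the 103 always-detected miRNAs (-0.62 in females, -0.76 in males) and higher with the percentile over all 677 (0.80, 1.54). The male livers read 12.8, 14.5, 15.7, 15.96 and 16.7 at 2 weeks (15.1 ± 1.52, SD, n = 5) and 18.1, 18.3, 20.8, 22.5 and 22.6 at 8 weeks (20.5 ± 2.19), without overlap. That log2 difference was 0.43 (SE 0.0914, adjusted p = 9.74e-05). Males at 104 weeks read 13.7, 14.9, 16.5 and 16.6 (15.4 ± 1.38), a log2 difference of -0.41 from 8 weeks (adjusted p = 0.00432). In males 10 of 36 pairs of ages reached an adjusted p under 0.05, and in females 0 of 36. Female livers at 2 weeks read 15.4, 17.2, 19.5, 19.7 and 20.1, within the range of the other female groups.

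By the rule for age, 2 of the 6 miRNAs were called in females, miR-143 (F test adjusted p = 0.00101) and miR-214 (adjusted p = 0.0157), against 57.3% of the 314 miRNAs. In males 1 of the 6 was called, miR-143 (adjusted p = 5.53e-05), against 54.1%. Leaving out replicate 4 of the 2-week females changed the female count to 1, since miR-143 lost its call, and leaving out replicate 6 of the 78-week males changed the male count to 2. When the 9 ages of each sex were put in order of level, 0 of 96 differences between neighbors in that order had an adjusted p under 0.05 (lowest 0.292). The order was taken from the same levels, which makes these differences small. No conclusion is drawn from the count, beyond that neighbors in the order were not separated.

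miR-145 was near the limit of detection. Where it was detected, a median of 3 of its 20 spots stood well above background, against all 20 for miR-143, miR-199a-3p and miR-126, and 11 for miR-199a-5p. Its detection moved with the scan, at 0 of 1, 0 of 13, 15 of 30 (50%), 7 of 28 (25%) and 9 of 16 (56.2%) arrays of scans 1 to 5. The 31 arrays that detected it had a median 75th percentile of 83.2 (37.5 to 289), and the other 57 had a median of 53.8 (28.1 to 174). By age class it was detected in 2 of 5 young, 11 of 25 adult and 6 of 15 old females, and in 3 of 5 young, 5 of 24 adult and 4 of 14 old males. Where detected, its intensity ran from 0.0392 to 0.182.

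**Figure D2:**
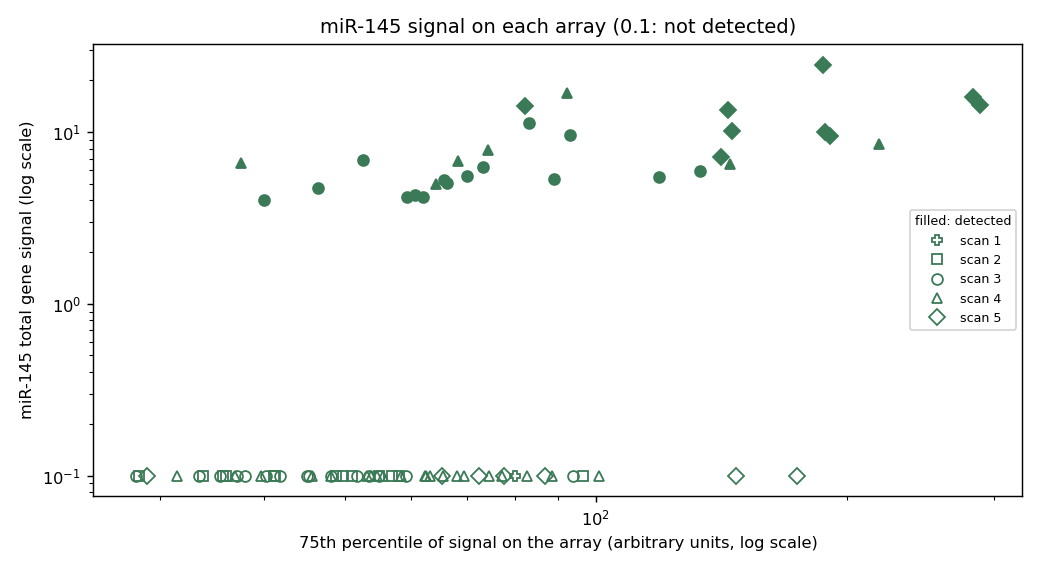
Total gene signal of miR-145 (arbitrary units, log axis; 0.1 is the placeholder for not detected) against the 75th percentile of signal on the array (arbitrary units, log axis), 1 point per array, with shapes for the 5 scans and filled points for the 31 arrays that detected it. Detected and undetected arrays share much of the horizontal range, and scans 1 and 2 hold no filled point.

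Between age classes, 1 of the 6 was called, miR-143 in males. Its young males lay at 5.06 to 7.38 (median 6.10, n = 5) and its adult males at 7.27 to 16.7 (median 10.1, n = 24), so that 1 adult lay inside the young range. The log2 difference, adult minus young, was 0.73 (SE 0.128, adjusted p = 3.31e-06, 1.66-fold), against 49.7% of 314 miRNAs called in males in this contrast (29.9% higher). It was -0.39 with the percentile over the 103 always-detected miRNAs, -0.48 under quantile normalization and -0.36 without scaling, and 1.92 with the percentile over all 677. The normexp background gave 0.15 (adjusted p = 0.519), which ended the call. Within scans 3, 4 and 5 it was 0.83, 0.62 and 1.11 on the scale used, with 3, 1 and 1 young males. In females the difference was 0.43 (SE 0.126, adjusted p = 0.00371), under 1.5-fold, so that 0 of 6 were called against 39.8%. At the adjusted p alone, 31.5% of miRNAs were higher in adult females and 34.4% in adult males. It too turned under those 3 scalings, and was -0.01 with the normexp background.

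The other members moved less between young and adult livers on that scale. miR-126 gave 0.35 in males (SE 0.0744, adjusted p = 6.59e-05) and 0.03 in females (adjusted p = 0.898), and both values turned negative with the percentile over the 103 always-detected miRNAs, under quantile normalization, without scaling and with the normexp background. Its other arm, miR-126*, detected in all 88 livers, gave 0.60 in males (SE 0.221, adjusted p = 0.0184, 1.51-fold, called) and 0.21 in females (adjusted p = 0.474), which became -0.52 and -0.44 with the percentile over the 103 always-detected miRNAs. miR-214 gave -0.35 in females (adjusted p = 0.0559) and -0.14 in males (adjusted p = 0.608). miR-199a-3p gave -0.17 and -0.05, and miR-199a-5p -0.16 and -0.05, in females and males (adjusted p from 0.196 to 0.866). Between old and adult livers 0 of 6 were called in either sex, against 4.46% of 314 in females and 5.10% in males. In males 2 passed on the adjusted p alone, miR-143 (-0.31, adjusted p = 0.0148) and miR-126 (-0.23, adjusted p = 0.0013), against 4.78% of miRNAs lower at that threshold. In females the values were -0.09 for both (adjusted p = 0.635 and 0.378).

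These signs rest on what the arrays are scaled to. The median of the 103 miRNAs detected on every array rose from young to adult by 0.52 in females and 0.99 in males on the scale used, while the median of all 314 rose by 0.13 in each sex. The shift of the 103 itself came with the scaling, since it was -0.14 in females and -0.13 in males with the percentile over the 103. A member's distance from the median of the 103 is the same by construction when arrays are only rescaled, so that quantile normalization, the normexp background and the mean processed signal were the alternatives that could change it. The 5 members among the 103 lay below that median in both sexes on the scale used and under those 3. Their order was not stable. On the scale used miR-143 stood closest to the median (-0.09 in females, -0.26 in males), followed by miR-126 (-0.48, -0.63), miR-199a-5p (-0.67, -1.03), miR-199a-3p (-0.68, -1.04) and miR-214 (-0.87, -1.13). Under quantile normalization miR-199a-5p stood closest (-0.26, -0.44) and miR-199a-3p furthest (-0.95, -1.37), with miR-143 at -0.33 and -0.84. With the normexp background miR-126 stood furthest in females (-0.62) and miR-199a-3p in males (-0.76). On the scale used, 6 of the 103 miRNAs in females and 7 in males had a lower difference than miR-214, against 40 and 41 for miR-143. Under quantile normalization these were 22 and 28 for miR-214 and 28 and 12 for miR-143, which turned their order in males, and with the normexp background 19 and 19 against 31 and 31. From adult to old the same median moved by 0.04 in females, and miR-199a-5p lay above it by 0.13 in females and 0.12 in males, but by 0.0023 and 0.0067 with the normexp background.

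**Figure D3:**
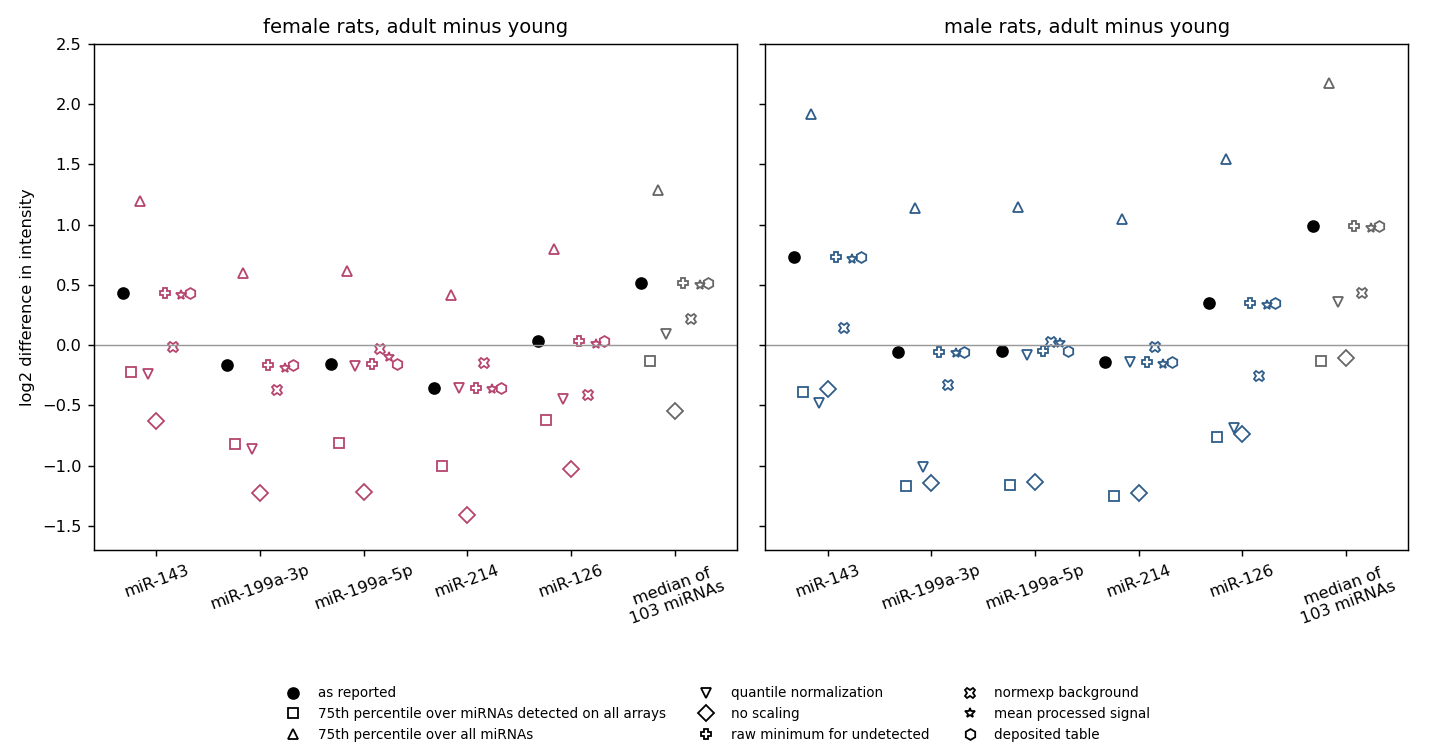
Log2 difference in intensity, adult minus young, of the 5 miRNAs detected on every array and of the median of the 103 such miRNAs, in females (left) and males (right), with 1 symbol for each of 9 ways of processing the signal. The sign of a member turns with the scaling, as for miR-143 in males from 0.73 to -0.39, while every member lies below the median of the 103, a relation that only quantile normalization, the normexp background and the mean processed signal could have changed.

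Marker miRNAs of other cell types are given on the same scale, on which the median of the 103 rose as stated, and their part in the results was not tested. Called higher in adult than in young livers were 3 of 3 hepatocyte miRNAs in each sex, 3 of 4 leukocyte miRNAs in females and 4 of 4 in males, and 2 of 2 erythroid miRNAs in each sex, against 22.9% and 29.9% of the 314 called higher. These markers were detected on every array. The share is larger among well-detected miRNAs, since 72 and 94 were called higher both among all 314 and among only those detected on at least 44 arrays. The summed intensity of 3 hepatocyte miRNAs (miR-122, miR-192, miR-194, all detected on every array) was 399 to 428.9 in young males and 634 to 1272 in adult males, and 560 to 675 in young and 653 to 1289 in adult females. The sum of 4 leukocyte miRNAs (miR-142-3p, miR-142-5p, miR-223, miR-150) was 2.93 to 5.60 in young, 6.85 to 12.9 in adult and 8.60 to 22.7 in old males. In females it was 3.73 to 5.16, 5.63 to 13.5 and 9.56 to 30.0. miR-155, also listed, was not on the array under that name. The 2 erythroid miRNAs detected, miR-451 and miR-144, summed to 3.18 to 6.26 in young and 7.14 to 21.1 in adult males, and to 3.29 to 5.64 and 4.17 to 19.1 in females, with overlap. The 5 biliary miRNAs (the miR-200 family) summed to 2.53 to 3.70 in young and 1.06 to 5.26 in adult males, where 0 of 5 were called, and to 3.25 to 4.20 in young and 0.534 to 4.22 in adult females, where 2 were called lower. miR-200c was not detected in young livers. Of the 5 striated muscle miRNAs 0 were detected on every array, 0 were called in males and 1 was called higher in females, and they reached a sum of 65.6 in 1 adult male. miR-133a was not detected in young males.

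To compare mesenchymal with endothelial miRNAs free of the scaling factor, each miRNA was divided by miR-126 on the same array, a ratio that quantile normalization and the background correction can still change. None of the 5 mesenchymal miRNAs was then called (miR-145, undetected on most arrays, differed by -0.81 on the log2 scale in males, adjusted p = 0.284, and by 0.94 under quantile normalization), against 40.6% of 313 miRNAs called between young and adult females and 46.3% in males, and 4.15% and 9.58% between adult and old. That count was 2 in females and 3 in males under quantile normalization, and 1 in females with the normexp background. The direction of the ratio differed within the group. miR-143 over miR-126 was higher in adults by 0.40 on the log2 scale in females (SE 0.131, adjusted p = 0.00929) and by 0.38 in males (SE 0.137, adjusted p = 0.0165). Of the alternatives that could change the ratio, quantile normalization gave 0.21 in each sex (adjusted p = 0.126 and 0.201) and the normexp background 0.40 and 0.41 (adjusted p = 0.0048 and 0.0595). At an adjusted p under 0.05 alone, 29.7% of miRNAs were higher in adult females and 28.1% in adult males.

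The other 3 detected mesenchymal miRNAs fell relative to miR-126 from young to adult in males on this scale, miR-199a-3p by 0.41 (adjusted p = 0.00966), miR-199a-5p by 0.40 (adjusted p = 0.0179) and miR-214 by 0.49 (adjusted p = 0.0242), although the values of miR-199a-5p and miR-214 turned to 0.61 and 0.55 under quantile normalization and to 0.29 and 0.24 with the normexp background, where miR-199a-3p was -0.07 (adjusted p = 0.719). In females miR-214 fell by 0.38 (adjusted p = 0.0156), but was higher by 0.09 and 0.26 under these same alternatives. The female values of miR-199a-3p (-0.20, adjusted p = 0.0646) and miR-199a-5p (-0.19, adjusted p = 0.111) did not pass, and that of miR-199a-5p was 0.28 under quantile normalization and 0.38 with the normexp background. Under other settings that of miR-199a-3p ran from -0.41 to 0.04, with an adjusted p under 0.05 in 4 of 15. Lower ratios at that adjusted p made up 20.8% of miRNAs in females and 30.7% in males. From adult to old, miR-199a-5p over miR-126 rose by 0.26 in females (adjusted p = 0.00663) and by 0.36 in males (adjusted p = 0.00396), and miR-199a-3p by 0.24 in males (adjusted p = 0.0398). With the normexp background these 3 were 0.01, 0.05 and 0.09, none passing (adjusted p at least 0.936). At that threshold 10.2% of miRNAs rose relative to miR-126 in old females and 41.2% in old males.

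**Figure D4:**
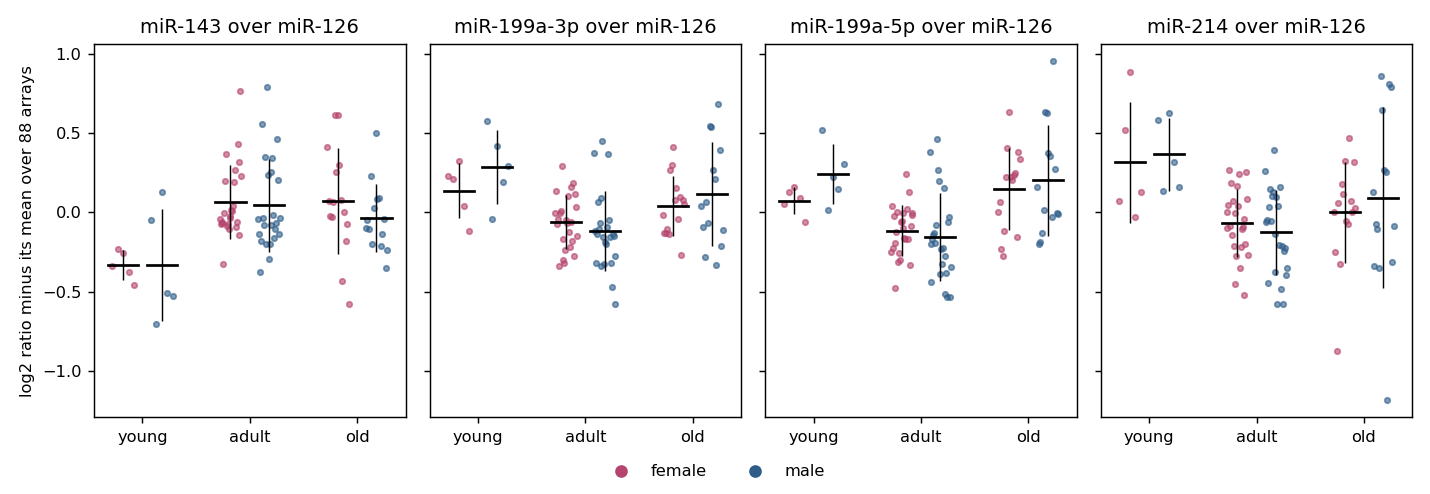
Log2 ratio of each of 4 mesenchymal miRNAs to miR-126 on the same array, minus the mean of that ratio over the 88 arrays, by age class, with 1 point per rat, bars for the mean and lines for ± 1 SD (n = 5 young, 25 and 24 adult, 15 and 14 old, females in red and males in blue). Adult livers lie higher than young for miR-143 (by 0.40 and 0.38) and lower for the other 3 as plotted, where miR-199a-5p and miR-214 turn in both sexes under quantile normalization and with the normexp background, as does miR-199a-3p in females with the latter.

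miR-143 was then compared directly with the other mesenchymal miRNAs, in tests chosen after these values were seen. The log2 ratio of miR-143 to miR-199a-3p on the same array rose from young to adult by 0.60 in females (SE 0.0590) and by 0.78 in males (SE 0.1002). Its ratio to miR-199a-5p rose by 0.59 and 0.77, and its ratio to miR-214 by 0.78 and 0.87. In permutation tests (two-sided, 100000 draws, Benjamini-Hochberg over 12 tests) the adjusted p of these 6 was at most 0.00022. All 6 share miR-143, and the share of other miRNA ratios that pass this test was not computed. Relative to miR-126, 40.6% of miRNAs in females and 46.3% in males were called between young and adult. Each of the 3 ratios was also positive within every scan that held both classes of a sex, at 0.45 to 1.22, with 1 to 3 young livers per scan. From adult to old in males the ratios fell by 0.32, 0.44 and 0.30 (adjusted p = 0.00066, 0.000429 and 0.0367), and in females that to miR-199a-5p fell by 0.25 (adjusted p = 0.00685). None of these 4 passed with the normexp background, where the male values were -0.19, -0.15 and -0.11 (adjusted p = 0.189, 0.776 and 0.776) and the female value was -0.01 (adjusted p = 0.896). Under quantile normalization all 4 passed, at -0.33, -0.50 and -0.36 in males (adjusted p = 0.0011, 0.00018 and 0.0091) and -0.39 in females (adjusted p = 0.0002). There the female ratio to miR-199a-3p passed too (-0.27, adjusted p = 0.00204). With the normexp background in place of the software's own, the young to adult values were 0.36 and 0.48 for miR-199a-3p (adjusted p = 0.00432 and 0.0149) but 0.02 to 0.16 for the other 2 miRNAs, none passing. Under quantile normalization they were 0.62 and 0.53 for miR-199a-3p (adjusted p = 0.00012 and 0.0011), but the male values turned to -0.40 for miR-199a-5p and -0.34 for miR-214 (adjusted p = 0.0173 and 0.0190), and the female values were -0.07 and 0.12, not passing.

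The arms of a hairpin come from 1 transcript, so their ratio on an array was examined as well, also after the values were seen. miR-199a-5p over miR-199a-3p had a median of 0.309 in adult females (0.260 to 0.358, n = 25) and 0.343 in old females (0.282 to 0.392, n = 15), which overlapped widely. The log2 difference was 0.16 (SE 0.0443), with an adjusted permutation p of 0.00624 over 8 tests. It was 0.079 with the mean processed signal, and the difference was -0.01 with the normexp background. In males the log2 difference was 0.12 (adjusted p = 0.287). With that background it rose instead from young to adult, by 0.34 in females and 0.36 in males (adjusted p = 0.00512 and 0.0467), where the scale used gave 0.01 in each. For miR-126* over miR-126 no test passed on the scale used (adjusted p at least 0.717), but with the normexp background the ratio rose from young to adult by 0.52 in females (adjusted p = 0.0198).

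Sex was compared at each of the 9 ages. Of 54 combinations of member and age, 1 was called, against 6.09% of the 2826 combinations over all miRNAs. It was miR-145 at 78 weeks, where 4 of 5 females read 0.0936, 0.103, 0.135 and 0.182 and the fifth female and all 5 males were not detected (adjusted p = 0.0332, against 3.82% of miRNAs called at that age). Those males have only a bound. With the lowest intensity detected for any miRNA on their arrays (mean 0.061) in its place, the mean of the females was 1.28-fold higher. The limit for miR-145 itself may lie higher, since its lowest detected signal was 3.99, against 1.84 over all miRNAs, so no minimum fold is shown. The call held in 7 of 14 settings, and was lost with the raw minimum for undetected values and with the slide as a block, and the difference, male minus female, turned from -2.70 to 0.22 with the normexp background. Leaving out replicate 1, 3 or 5 of those females or replicate 2 or 5 of those males ended the call (adjusted p up to 0.0843). At 104 weeks the detections lay the other way, in 0 of 5 females and 3 of 4 males. miR-143, miR-199a-3p, miR-199a-5p and miR-214 passed at no age on the scale used (lowest adjusted p = 0.109, 0.568, 0.738 and 0.526), but each was called higher in males at 8 weeks with the percentile over all 677 (log2 differences from 1.31 to 1.496).

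miR-126 at 2 weeks was lower in males, which read 12.8 to 16.7 against 15.4 to 20.1 in females with overlap (log2 difference -0.28, adjusted p = 0.0314, under 1.5-fold), but the difference turned with the percentile over the 103 always-detected miRNAs and under quantile normalization (0.30), and an adjusted p under 0.05 was reached in 7 of 15 settings. The young to adult change of miR-126 was larger in males than in females by 0.32 (SE 0.118, adjusted p = 0.0312), the only one of the 6 that passed this interaction test, against 27.1% of the 314. That difference was -0.14 with the percentile over the 103 always-detected miRNAs and -0.24 under quantile normalization, and with the scan as a block its adjusted p was 0.0505. Leaving out replicate 1, 5 or 6 of the 2-week females or replicate 1 or 3 of the 2-week males also ended the call (adjusted p up to 0.112). In all, the call held in 6 of 15 settings, and was also lost with the percentile over all 677, without scaling, with the raw minimum for undetected values, with the normexp background and without scan 5 (adjusted p = 0.333, 0.977, 0.0890, 0.997 and 0.227). miR-143 passed in 1 of 15, with the scan as a block (0.44, adjusted p = 0.0431). From adult to old 0 of 6 differed between the sexes (limma; 1.59% of 314 did; 0 of 6 at an unadjusted p under 0.05).

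Arrays of the same age and sex deviated in several of these miRNAs at once. Each rat is 1 array, so differences between rats, tissue pieces and arrays cannot be told apart here. After the 18 group means were removed, miR-199a-3p and miR-199a-5p, the arms of 1 hairpin, had a Pearson r of 0.789 (Spearman rho 0.780) over the 88 arrays. miR-199a-3p and miR-214, neighbors on the chromosome, had 0.682 (0.617), and miR-199a-5p and miR-214 had 0.573 (0.504). miR-143, from another chromosome, had 0.693 (0.671) with miR-199a-3p, 0.479 (0.515) with miR-199a-5p and 0.434 (0.383) with miR-214. With miR-126 the values were 0.431 (0.386) for miR-199a-3p, 0.376 (0.357) for miR-199a-5p, 0.303 (0.280) for miR-143 and 0.240 (0.189) for miR-214. The pairs with miR-126 were not tested against the mesenchymal pairs, and the 2 sets overlapped with the scan as a block, where miR-199a-3p with miR-126 had 0.492 and miR-143 with miR-199a-5p 0.360. Over all 5253 pairs of the 103 miRNAs the median r was 0.192 (quartiles -0.062 and 0.427), and 98.6% of those pairs lay below the 2 miR-199a arms and 55.4% below miR-214 with miR-126.

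In permutations within groups (two-sided, 100000 draws, Benjamini-Hochberg over 10 pairs) all 10 values of r passed, against 53.9% of the 5253 pairs at an unadjusted p under 0.05 (10000 draws), with adjusted p from 2e-05 to 0.0194 (the smallest unadjusted p these draws could give is 1e-05). Of these, 8 passed with the percentile over the 103 always-detected miRNAs, without miR-143 with miR-126 (0.189, adjusted p = 0.0878) and miR-214 with miR-126 (0.265, adjusted p = 0.0857). For rho 9 of 10 passed, the exception being miR-214 with miR-126 (adjusted p = 0.110). Without the 2 arrays farthest from the median, r ran from 0.218 (miR-143 with miR-126) to 0.742 (the miR-199a arms). With the scan removed as well, 10 pairs passed. Within single scans 2 to 5, with 3, 13, 11 and 2 arrays free after the group means, 0, 1, 0 and 0 passed. In scans 2 and 5 no pair could pass, because so few shuffles exist that the lowest unadjusted permutation p for r was 0.25 and 0.499.

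**Figure D5:**
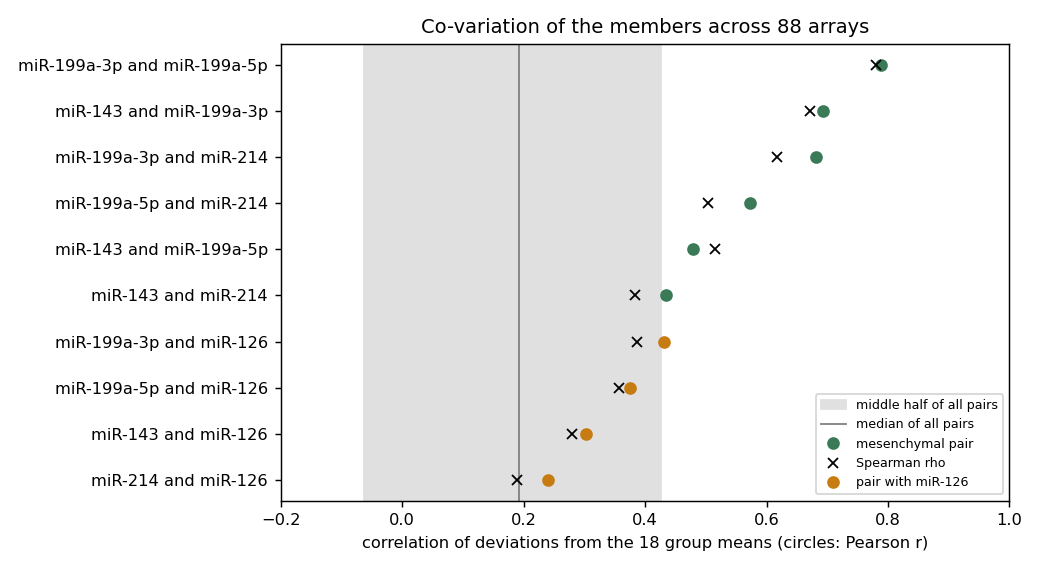
Correlation of deviations from the 18 group means for the 10 pairs of the 5 miRNAs detected on every array (circles, Pearson r, green for mesenchymal pairs and orange for pairs with miR-126; crosses, Spearman rho), over 88 arrays. The gray band and line are the quartiles (-0.062, 0.427) and the median (0.192) of r over all 5253 pairs, and on the scale used the mesenchymal pairs run from 0.434 to 0.789 and the pairs with miR-126 from 0.240 to 0.431, ranges that were not tested against each other and overlap with the scan as a block.

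Across the 18 group means, as a description over groups that share the array scaling, the miR-199a and miR-214 miRNAs followed each other (Spearman rho 0.769 for the arms, 0.705 and 0.657 with miR-214), while miR-143 had -0.257 with miR-214 and 0.410 with miR-126. Among the 98 other miRNAs detected on every array, the patterns most like miR-143 were those of miR-24 (0.818), miR-378 (0.752) and miR-23b (0.676). For miR-126 they were miR-16 (0.814), miR-25 (0.713) and miR-15b (0.697). miR-181a came first for both miR-199a-3p (0.668) and miR-214 (0.719). miR-199a-3p was followed by miR-200a (0.492) and miR-335 (0.467), and miR-214 by miR-322 (0.641) and miR-335 (0.633). miR-199a-5p had no close match, the nearest being miR-146a (0.426), let-7i (0.416) and miR-500 (0.385). miR-145 was left out, since most of its values were undetected.

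Of other miRNAs linked to stellate cell activation and fibrosis, 12 of 13 listed were expressed (miR-222 was not). From young to adult 7 were called higher and 1 lower in females, where 39.8% of all 314 were called (median log2 difference 0.73, against 0.13 over all 314 and 0.52 over the 103 detected on every array), and 9 higher and 1 lower in males, where 49.7% were (1.12, against 0.13 and 0.99). Of the 12, between 11 and 12 were detected on every array of a given sex and class, so that the median of the 103 is the closer comparison. The miR-29 family, which represses collagen and other matrix genes, had the largest differences, 2.59 for miR-29b and 2.34 for miR-29a in females (adjusted p = 1.2e-09 and 1.1e-12) and 3.15 for miR-29a and 2.90 for miR-29c in males (adjusted p = 2.03e-19 and 3.91e-18). From adult to old 3 were called higher in females and 3 in males, led by miR-29b (1.47 and 1.38), and 1 lower in males, miR-221 (-1.22, adjusted p = 0.0079), against 4.46% and 5.10% of all 314. Their medians were 0.01 and -0.16, against 0 over all 314.

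Of the 10 other miRNAs listed as endothelial or vascular, 9 were expressed, again without miR-222, which like miR-221 is on both lists. In females 2 were called higher in adult than in young livers, miR-23a (0.91, adjusted p = 1.45e-08) and miR-10a-5p (0.77, adjusted p = 2.62e-05), and 0 lower (median 0.40, against 0.52 over the 103), against 39.8% of all 314. In males 7 were called higher, led by miR-221 (2.17, adjusted p = 8.35e-05) and miR-10b (1.70, adjusted p = 2.67e-06), and 0 lower (median 0.79, against 0.99 over the 103), against 49.7%. From adult to old 0 of 9 were called in females (limma; miR-92a passed on the adjusted p alone, at -0.47, adjusted p = 8.21e-06) and 1 in males, miR-221, lower. Directions here are those of the scale used, on which 72 miRNAs were called higher and 53 lower between young and adult females and 94 and 62 in males. With the percentile over the 103 always-detected miRNAs those splits were 25 and 81, and 23 and 105.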

How the data were processed

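RNA from liver tissue of 88 rats was hybridized by the authors to one-color Agilent rat miRNA arrays, 1 animal per array. The authors deposited scanner files of linear intensity values (median spot signals summed to a total gene signal per miRNA, 0.1 where not detected) and 1 table holding the ratio of that signal to the array's 75th percentile. The later array design, used for 17 arrays, was joined by probe name. From the scanner files, undetected signals were set to 1.84, each array was divided by its value of rank 236 among the 314 expressed miRNAs, undetected values were set to 0.0120 and values were log2-transformed; 1 detected value differed from the deposited table by over 0.01%. limma (3.58.1; R 4.3.3) was fitted to all 314 miRNAs with Benjamini-Hochberg adjustment. Permutation tests used Python 3.11.15, numpy 2.4.6 and scipy 1.17.1. The fits were tested on simulated data.

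Scans are runs of arrays with over 8 hours between them, since the 4 processing days of the methods are not given by sample. Normexp used median spot and background signals with an offset of 50. Named besides the 6 miRNAs were other arms of their hairpins, for each the 3 miRNAs most like it over group means, and list members with the 2 largest differences. The members and lists were chosen with earlier results of these data known. Alternatives were other percentiles, quantile normalization, no scaling, other signals, filters, blocks and left-out arrays.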

Additional observations from a re-analysis of the deposited data

Results flagged for a closer look

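Among 90 groups of 4 or 5 arrays examined for a sample far from the others (5 miRNAs in 18 groups), 5 held one, and chance gives about 1 in 20. miR-199a-3p read 1.94 in 6-week male replicate 5, against 2.97 to 3.28 in the other 4 rats. miR-199a-5p read 1.41 in 104-week male replicate 2, against 0.801 to 0.811 in the other 3. miR-214 read 0.674 in 5-week male replicate 6, against 0.848 to 0.872. miR-126 read 16.2 in 5-week male replicate 1, against 19.8 to 20.6, and 21.8 in 52-week male replicate 10, against 17.0 to 17.9. All 5 were males, from scans 3, 4 and 5.

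The young to adult change of miR-126 differed between the sexes by 0.32 on the log2 scale (limma interaction, adjusted p = 0.0312), with the exceptions under other settings given above.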

How the results depend on the processing

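For the members' values that were called as reported, 254 recomputed values under other settings gave 167 with the same direction and call, 60 without the call and 27 that turned. Among values not called as reported, 61 gained a call in their direction. Others turned sign and gained a call, since 50 of all 2300 recomputed values turned and the 27 are only part of these. Many small ones changed sign without a call. Ratios within an array keep their value by construction when arrays are only rescaled. The called values that turned did so under another scaling of the array or the normexp background. Detection limits miR-145, and miR-199a-5p had a median of 11 of 20 spots above background. Same-numbered rats did not deviate together (mean correlation 0.05 between the sexes at an age, over 0.1 in 17 of 33 pairs), so the numbers do not pair them, and the replicate block moved the females called by age from 2 to 1 and no other count of members by over 1.5 times.

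With the percentile over the 103 always-detected miRNAs, the members called were 4 by age in females, 5 in males, 4 and 5 between classes, and 0 for sex and for the interaction. With the percentile over all 677 they were 1 and 5 by age, 3 and 5 between classes, 5 for sex and 0 for the interaction. Under quantile normalization they were 5 and 3 by age, 2 and 3 between classes, 0 for the interaction, and 2 and 3 relative to miR-126. Without scaling they were 0 by age in males, 4 and 3 between classes and 0 for the interaction. With the raw minimum for undetected values they were 0 for sex and for the interaction. With the normexp background they were 0 between classes in males, 0 for sex, 0 for the interaction and 1 relative to miR-126 in females. Sex gave 0 with the slide as a block, and 2 with an ordinary test per miRNA. It also gave 0 among miRNAs detected on at least 44 arrays, a filter that removes the called miR-145, detected on 31, before the test. Age in females gave 1 with the scan as a block. Without the later design, and without scan 5 (chosen after seeing the data), age in females gave 1, sex 0 and the interaction 0. Co-variation within scans 2 to 5 gave 0, 1, 0 and 0 pairs, where scans 2 and 5 had too few free arrays for any pair to pass. Leaving out 1 array gave 1 to 3 members by age in females, 1 to 2 in males, 0 to 1 for sex, 0 to 1 for the interaction, 0 to 0 between classes in females and 1 to 1 in males, and 0 to 0 relative to miR-126.

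The values that turned are log2 differences. With the percentile over the 103 always-detected miRNAs, miR-143 gave -0.21 (21 minus 2 weeks) and -0.33 (78 minus 2) in females, and -0.17, -0.29, -0.61 and -0.48 (6, 8, 15 and 21 minus 2) in males. Its male classes gave -0.39 (adult minus young) and -0.69 (old minus young). miR-126 gave -0.62 (adult minus young, females), -0.76 and -0.98 (adult and old minus young, males) and -0.14 (interaction), and miR-199a-5p -0.82 and -1.02 (old minus young, females and males). With the percentile over all 677, miR-214 gave 0.13 (15 minus 2, females) and 1.05 and 0.99 (adult and old minus young, males). miR-199a-3p gave 1.14 and 1.10 in those male contrasts, miR-199a-5p 1.15 (adult minus young, males), and the sex difference at 8 weeks was 1.38 for miR-126, 1.39 for miR-199a-5p and 1.31 for miR-214. Under quantile normalization, miR-143 gave -0.19 and -0.27 (21 and 78 minus 2, females), -0.27, -0.36, -0.67 and -0.61 (6, 8, 15 and 21 minus 2, males) and -0.48 and -0.84 (adult and old minus young, males). miR-126 gave -0.69 and -1.11 in those male classes and -0.24 for the interaction. Relative to miR-126 in males, adult and old minus young gave 0.94 and 1.30 for miR-145 and 0.61 and 1.16 for miR-199a-5p, and old minus young 0.97 for miR-214. Without scaling, miR-143 gave -0.36 (21 minus 2, females), and -0.61, -0.0183, -0.66 and -0.60 (6, 8, 15 and 21 minus 2), 0.21 (104 minus 6) and -0.36 (adult minus young) in males, and miR-126 -1.03 (adult minus young, females). With the normexp background, miR-143 in males gave -0.0301 (8 minus 2) and 0.0054 (104 minus 8), and miR-145 at 78 weeks 0.22 (male minus female).

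All other miRNAs moved with the scaling too. The young to adult split of calls, higher and lower, was 121 and 46 in females and 132 and 56 in males with the percentile over all 677, 7 and 92 and 14 and 85 without scaling, and 156 and 46 and 169 and 51 with the raw minimum. It was 27 and 12 and 47 and 16 with normexp, and 72 and 9 and 94 and 7 among miRNAs detected on at least 44 arrays. Between old and adult, 8 miRNAs were called in females and 6 in males with the percentile over all 677 and 6 and 8 with normexp, against 14 and 16.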
